A study of Mus musculus with 15 samples.

Results

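miR-205-5p, miR-203-3p and miR-184-3p (mmu-miR-205-5p, mmu-miR-203-3p and mmu-miR-184-3p in full) are miRNAs known from stratified and other surface epithelia, and were followed in small RNA libraries of mouse plasma. They were picked by name with their difference between the 2 groups already seen, and each matched 1 row, so that 3 of the 1205 miRNA entries in the count table were described. Plasma freed of platelets was taken 24 h after surgery from male wild type C57BL/6J mice. The 6 sham libraries came from mice given a sham operation, and the 9 CLP libraries from mice given CLP, or cecal ligation and puncture, which lets gut contents leak into the peritoneum and is used to model sepsis. No other genotype, agent or age is given in the labels. The labels do not say that each library is a separate animal, so that spread between libraries may in part be technical. Total counts ran from 5274676 to 13576482 per library, and 426 of the 1205 entries passed the filter on low counts.

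miRNAs are short RNAs that pair through their seed, bases 2 to 8, with messenger RNAs and lower their translation and stability. miR-205 is abundant in basal and progenitor cells of stratified epithelium, such as skin, and, like the miR-200 family, represses the transcription factors Zeb1 and Zeb2. miR-203 is made as keratinocytes leave the basal layer and represses the basal cell factor p63. miR-184 is best known from cornea and lens, where it can counter the repression by miR-205 of the lipid phosphatase SHIP2. In plasma, miRNAs are carried in vesicles and in protein and lipoprotein complexes that many tissues release.

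The mature sequences are printed because they show that the 3 miRNAs are unrelated, so that no read can be mistaken for that of another member. They are written 5′ to 3′ from RefSeq (GRCm38.p6), all 3 matched by name, with the seed in capitals, and the partner strand of miR-205-5p from the same hairpin is added because it was also read.
miR-205-5p: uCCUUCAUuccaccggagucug
miR-203-3p: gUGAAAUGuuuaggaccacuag
miR-184-3p: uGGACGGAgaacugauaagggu
miR-205-3p: gAUUUCAGuggagugaagcuca
Each of the 3 members is 22 bases long, and from the 5′ end any pair of them shares between 2 and 5 of the 22 positions. No other entry among the 1679 mature mouse sequences of that table carries one of their seeds. GC content was 54.5% in miR-205-5p, 50.0% in miR-184-3p and 40.9% in miR-203-3p. All entries of the 3 members were whole numbers, that is, none had received a divided share of reads.

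The 3 genes lie apart on GRCm38 (mm10). Mir205 is at chr1:193507463-193507530 on the minus strand, within an exon of the long noncoding RNA gene 4631405K08Rik in GENCODE M21. Mir203 is at chr12:112130880-112130955 on the plus strand, overlapping no other gene in GENCODE M21, although RefSeq places the miR-203b gene Gm51289 on its minus strand, with the protein-coding gene Aspg ending 3321 bases before it. Mir184 is at chr9:89802260-89802328 on the minus strand, also outside other genes of GENCODE M21, and 63785 bases from the nearest protein-coding gene, Ankrd34c. The hairpin of miR-205 is shown because both of its arms could be followed, with miR-205-5p in capitals.
Mir205: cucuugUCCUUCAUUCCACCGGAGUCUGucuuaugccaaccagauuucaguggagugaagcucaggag

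In plasma after the sham operation, miR-205-5p was the most abundant of the trio in all 6 libraries, and after CLP miR-203-3p was the most abundant in 8 of 9. Levels are given as CPM, the count relative to the library total after TMM scaling. All 3 were lower on average in CLP, with log2 changes of CLP minus sham of -3.51 ± 0.33 (SE) for mmu-miR-205-5p, -2.66 ± 0.49 for mmu-miR-184-3p and -0.69 ± 0.26 for mmu-miR-203-3p in edgeR's fit to all 426 tested miRNAs. The 3 miRNAs were chosen with this contrast already known, so these differences are a description and carry no test. Less release, faster clearance, fewer cells of a type and less RNA per cell cannot be told apart in plasma.

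The level of miR-205-5p in sham was 379 CPM in sham 1, 554 in sham 2, 410 in sham 3, 761 in sham 4, 1089 in sham 5 and 1192 in sham 6. In the 9 CLP libraries it was 21.9 CPM at the lowest (CLP 1), 70.5 at the median and 104 at the highest (CLP 2). Every CLP library lay below every sham library, with the highest CLP value well under the lowest sham value. The means were 731 ± 346 CPM (SD, n = 6) and 64.0 ± 26.0 CPM (SD, n = 9), and the fitted fold was 11.4 lower in CLP. Counts were 2683 to 12357 per sham library and 127 to 951 per CLP library, so that even in CLP 1 the 95% Poisson interval, which covers counting error only, was 18.3 to 26.1 CPM. By rank among all entries of a library, miR-205-5p stood between 49 and 77 in sham and between 123 and 183 in CLP.

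For miR-184-3p the sham libraries held 91.4, 247, 139, 113, 138 and 150 CPM, in the order of their numbers. The CLP values ran from 4.66 CPM (CLP 1) through a median of 12.4 to 51.2 (CLP 3). Again no CLP library reached the lowest sham library, at means of 146 ± 53.5 CPM (SD, n = 6) and 23.0 ± 18.8 CPM (SD, n = 9) and a fitted fold of 6.32 lower in CLP. The CLP libraries were uneven: CLP 3, 5, 7 and 8 held 51.2, 49.8, 29.6 and 35.5 CPM, and the other 5 held 12.4 or less, which left a gap of 2.39-fold between them. In CLP 1, miR-184-3p rested on 27 counts, with a 95% Poisson interval of 3.07 to 6.78 CPM, and in CLP 3 on 587 counts, with an interval of 47.2 to 55.5 CPM, so counting error was small beside the 11-fold range within CLP.

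The level of miR-203-3p in sham was 130, 197, 145, 236, 284 and 223 CPM in sham 1 to sham 6. In CLP it was 76.3 CPM at the lowest (CLP 3), 113 at the median and 228 at the highest (CLP 1). The groups overlapped: 7 of 9 CLP libraries lay below every sham library, while CLP 1 and CLP 9, at 228 and 201 CPM, stood within the sham range. Means were 202 ± 58.0 CPM (SD, n = 6) and 126 ± 54.2 CPM (SD, n = 9), a fitted fold of 1.61 lower in CLP. The 2 libraries with the most miR-203-3p after CLP were thus the 2 with the least miR-184-3p, and CLP 1 held the least miR-205-5p and miR-184-3p of all 15 libraries.

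**Figure D1:**
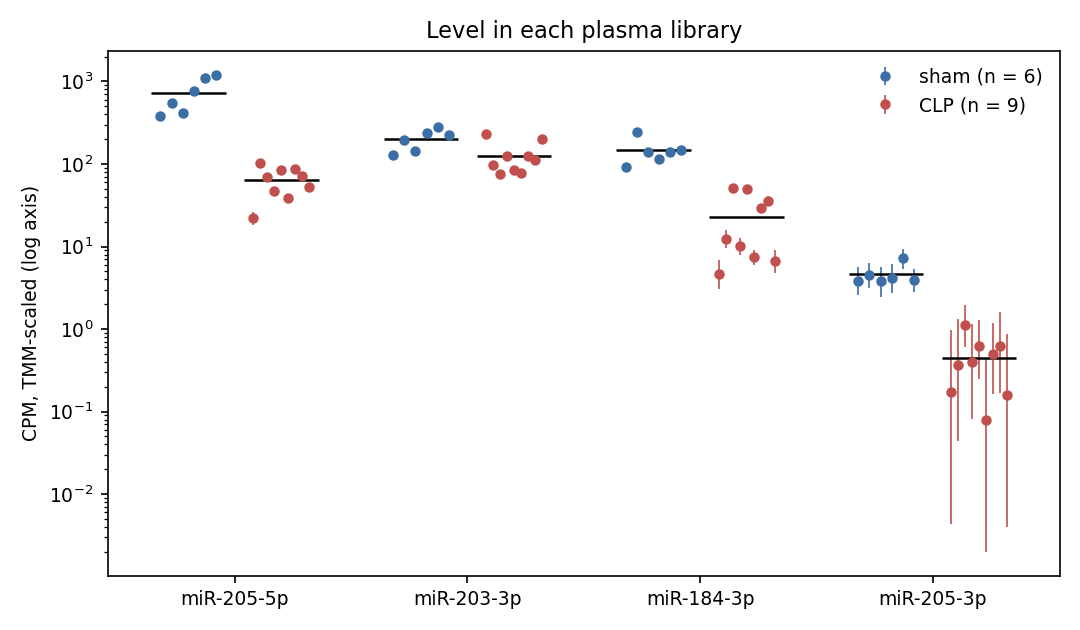
Level of the 3 miRNAs and of miR-205-3p in each plasma library, in TMM-scaled CPM on a log axis, blue for sham and red for CLP, in order of library number within a group. Black lines are group means and thin bars 95% Poisson intervals of the count. For miR-205-5p and miR-184-3p every CLP point lies below every sham point, whereas CLP 1 and CLP 9 lie within the sham range of miR-203-3p.

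Over all 426 tested miRNAs the median log2 change was 0.11 with TMM scaling and -0.12 when libraries were scaled by total counts alone. Measured from those medians, miR-205-5p stood at -3.62 and -3.60, miR-184-3p at -2.77 and -2.79, and miR-203-3p at -0.80 and -0.78. Subtracting a median takes out any shift shared by all miRNAs, so this likeness does not show how much scaling matters. Unsubtracted, the log2 changes under scaling by total counts alone were -3.73 for miR-205-5p, -2.91 for miR-184-3p and -0.91 for miR-203-3p. miR-205-5p had the 9th lowest log2 change of the 426, miR-184-3p the 18th and miR-203-3p the 100th. By edgeR's quasi-likelihood test at an adjusted p under 0.05, 47.2% of all tested miRNAs differed, 21.8% being lower and 25.4% higher in CLP, and all 3 members were among those called lower. Every CLP library lay below every sham library for 11.3% of tested miRNAs, among them 2 of the 3 members, and above for 8.45%, among them none of the members. The members were chosen with these calls known, so nothing is read from these shares. The call of miR-203-3p was lost in 7 of 26 alternatives. All 7 were among the fits that each left out 1 of the 15 libraries (sham 2 or 5, or CLP 2, 3, 4, 6 or 8). In them the log2 change of miR-203-3p was -0.55 without sham 5 and -0.72 to -0.66 without 1 of the other 6. Like the call itself, this is a description with no test. Once a trend with GC content was removed from each library, the unsubtracted log2 change of miR-203-3p was -1.06, against -3.29 for miR-205-5p and -2.69 for miR-184-3p. Measured from the median of that fit, they stood at -1.25, -3.48 and -2.88, in the same order.

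**Figure D2:**
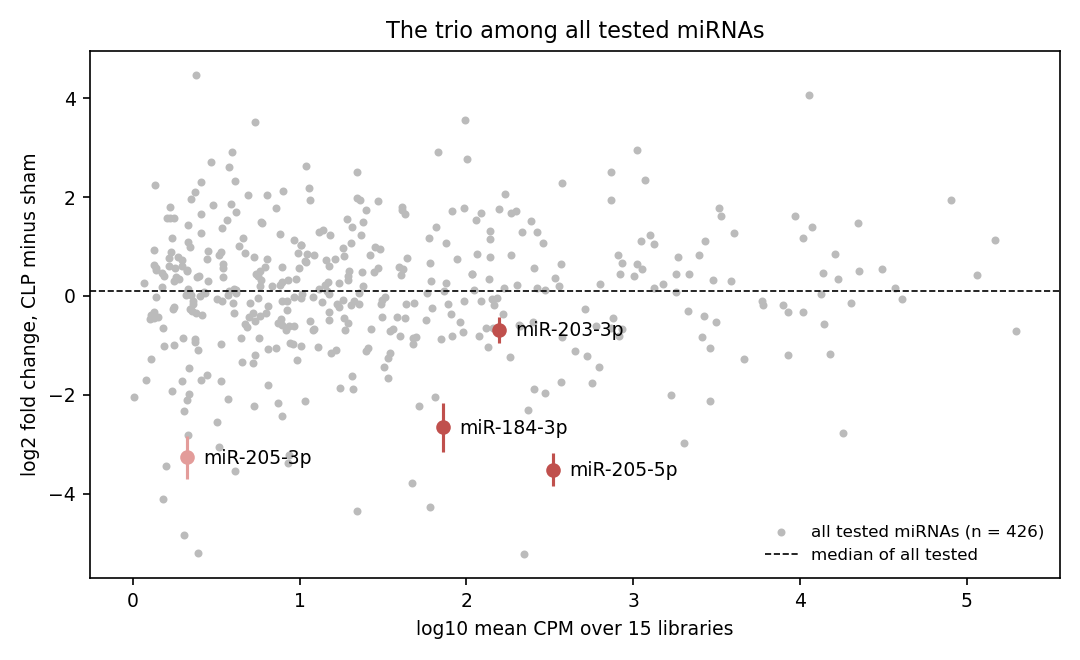
Log2 fold change of CLP minus sham against log10 of the mean CPM over 15 libraries, for all 426 tested miRNAs (grey), the 3 members (red) and miR-205-3p (pale red), with bars of 1 SE. miR-205-5p and miR-184-3p lie far below 0, at -3.51 and -2.66, and miR-203-3p lies at -0.69, nearer to the dashed median of all tested miRNAs at 0.11.

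Ratios of counts within a library do not depend on scaling, and they set miR-203-3p apart from the other two. There were 2.81 to 5.36 counts of miR-205-5p for each of miR-203-3p in sham, and 0.096 (CLP 1) to 1.06 (CLP 2) in CLP, without overlap. Mean log2 ratios were 1.77 ± 0.36 (SD, n = 6) and -0.999 ± 1.12 (SD, n = 9). For miR-184-3p over miR-203-3p the range was 0.481 to 1.25 in sham and 0.0204 to 0.672 in CLP, where CLP 3 and CLP 5 overlapped sham. By contrast the ratio of miR-205-5p to miR-184-3p, 2.25 to 7.97 in sham and 1.38 to 8.38 in CLP, spanned much the same range in both groups. Each of these ratios follows from the differences that were known when the miRNAs were chosen, and none was tested.

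Taken as shares of the summed counts of the trio, miR-205-5p held 65.7% ± 7.9 (SD, n = 6) in sham and 30.7% ± 11.4 (SD, n = 9) in CLP. The share of miR-203-3p was 19.4% ± 2.8 in sham and 58.3% ± 17.6 in CLP, up to 89.6% in CLP 1 and 77.2% in CLP 9. That of miR-184-3p was 14.8% ± 6.4 in sham and 11% ± 8.9 in CLP, from 1.8% in CLP 1 to 25.9% in CLP 3. In CLP 2 alone did miR-205-5p stay the largest of the 3 after CLP, at 48.4% against 45.8% for miR-203-3p. Ligation of adapters favours some RNA ends, so shares compare libraries better than they compare miRNAs.

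**Figure D3:**
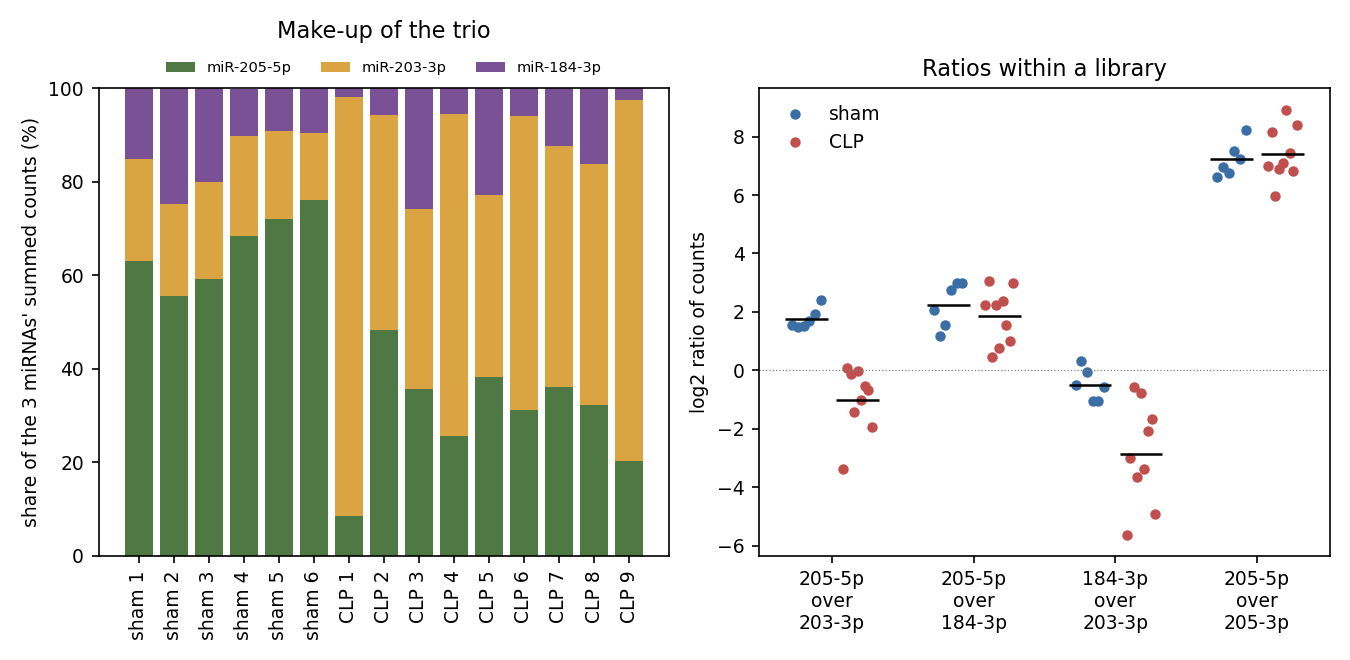
Left, share of each miRNA in the summed counts of the 3 for every library (percent). Right, log2 ratios of counts within a library for the 3 pairs and for the 2 arms of miR-205, one point per library, with black lines at group means. The ratio of miR-205-5p to miR-203-3p is 2.81 or more in every sham library and at most 1.06 in every CLP library (log2 axis), while the arm ratio of miR-205 overlaps between groups.

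Both arms of the miR-205 hairpin were read, and they were lower together. miR-205-3p, the passenger strand, held 3.82 to 7.21 CPM in sham, from 25 to 54 counts a library, and 0.0790 (CLP 6) to 1.13 CPM (CLP 3) in CLP, from 1 to 13 counts. Every CLP library lay below every sham library. Its fitted log2 change was -3.27 ± 0.44 (SE), and between -3.64 and -3.10 over 25 alternatives. This is a description with no test, since miR-205-3p passed the filter on low counts only through the sham libraries and comes from the same hairpin as miR-205-5p. The ratio of miR-205-5p to miR-205-3p was 97.8 to 301 in sham and 62.2 to 486 in CLP, and over summed counts 167 and 134, so that any difference in arm use was within the spread between libraries and, at 1 to 13 counts of miR-205-3p per CLP library, a small one was not detectable.

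The other strand of miR-203 was nearly unread. miR-203-5p had 2 counts in sham 4 and 4 in sham 5, against 9269 counts of miR-203-3p over the 6 sham libraries. It had 0 counts in the other 13 libraries, where a level of up to 0.237 to 0.547 CPM is still allowed by 3 counts. No entry of the count table carried the name of miR-184-5p or of the miR-203b strands, which come from the opposite strand of the miR-203 locus. They could therefore not be analysed here.

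Spread within a group was not used in choosing the miRNAs. In sham the SD of log2 CPM was 0.70 for miR-205-5p, 0.43 for miR-203-3p and 0.48 for miR-184-3p, where the median of all tested miRNAs was 0.50. In CLP it was 0.70, 0.57 and 1.31, where the median was 0.59. The spread of miR-184-3p among CLP libraries was larger than that of 95.1% of tested miRNAs, against 47.7% in sham, and those of miR-205-5p and miR-203-3p stood at 64.1% and 46.2%. These percentages are descriptions with no test.

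Whether the 3 miRNAs varied together was asked within each group, since pooling the groups would restate their difference. Of 12 relations none passed adjustment (exact two-sided permutation tests, smallest Benjamini-Hochberg adjusted p of Pearson's r 0.0896). Among the 6 sham libraries miR-205-5p and miR-203-3p ran in parallel, with Pearson's r = 0.90 (exact permutation p = 0.0222, adjusted 0.0896) and Spearman's rho = 0.83 (exact permutation p = 0.0583, adjusted 0.228), and r was 0.98 over the 4 libraries left without sham 1 and sham 6. Among the 9 CLP libraries the same pair had r = -0.54 (exact permutation p = 0.154, adjusted 0.308) and rho = -0.32 (exact permutation p = 0.410, adjusted 0.746), with r = -0.55 without CLP 1 and CLP 6. That the relation differs between the groups was not tested. In sham 1, sham 2 and sham 3 the red cell miRNAs listed below summed to 336000, 454000 and 320000 CPM. They summed to 165000, 157000 and 183000 CPM in sham 4, sham 5 and sham 6, where miR-205-5p and miR-203-3p were both higher. The part of this split in the sham coefficients was not tested.

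In CLP, miR-205-5p and miR-184-3p had r = 0.72 (exact permutation p = 0.0224, adjusted 0.0896) and rho = 0.63 (exact permutation p = 0.0760, adjusted 0.228), but r was 0.47 without CLP 1 and CLP 6. For miR-203-3p and miR-184-3p in CLP r was -0.63 (exact permutation p = 0.0727, adjusted 0.218) and rho -0.70 (exact permutation p = 0.0433, adjusted 0.228). Without CLP 1 and CLP 9, the 2 farthest from the median of miR-203-3p, r was -0.13. Leaving them out also narrows the range of miR-203-3p, so the change in r cannot show that the relation rested on them. The gap among miR-184-3p values in CLP limits what a pooled coefficient can show for both relations. In sham, miR-184-3p had r = 0.18 with miR-205-5p and 0.29 with miR-203-3p (exact permutation p = 0.756 and 0.617, adjusted 0.769 and 0.740; rho 0.37 and 0.09, with exact permutation p = 0.497 and 0.919, adjusted 0.746 and 0.948). The coefficients were -0.31 and -0.68 over the 4 libraries left without the 2 most extreme.

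Depth and red cell signal were set beside the members in CLP. miR-203-3p ran against the log2 library total (r = -0.75, exact permutation p = 0.0133, adjusted 0.0896; rho = -0.73, exact permutation p = 0.0311, adjusted 0.228; r = -0.57 without CLP 3 and CLP 6). miR-184-3p had r = 0.59 with that total (exact permutation p = 0.0961, adjusted 0.231; rho = 0.60, exact permutation p = 0.0968, adjusted 0.232; r = 0.82 without CLP 3 and CLP 6) and miR-205-5p r = 0.21 (exact permutation p = 0.615, adjusted 0.740; rho = -0.03, exact permutation p = 0.948, adjusted 0.948; r = 0.44 without them). The part of depth in these levels was not tested further. Red cell lysis was gauged by the log2 ratio of miR-451a, abundant in red cells, to miR-23a-3p, and r with it was -0.07 for miR-205-5p, -0.33 for miR-203-3p and 0.26 for miR-184-3p (exact permutation p = 0.769, 0.392 and 0.509, adjusted 0.769, 0.672 and 0.740; rho -0.28, -0.10 and -0.03, exact permutation p = 0.463, 0.810 and 0.948, adjusted 0.746, 0.948 and 0.948). Without CLP 5 and CLP 6 those r were -0.51, 0.45 and 0.07. With that ratio as a covariate in edgeR's fit, the changes were -3.54 for miR-205-5p, -0.88 for miR-203-3p and -2.39 for miR-184-3p.

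**Figure D4:**
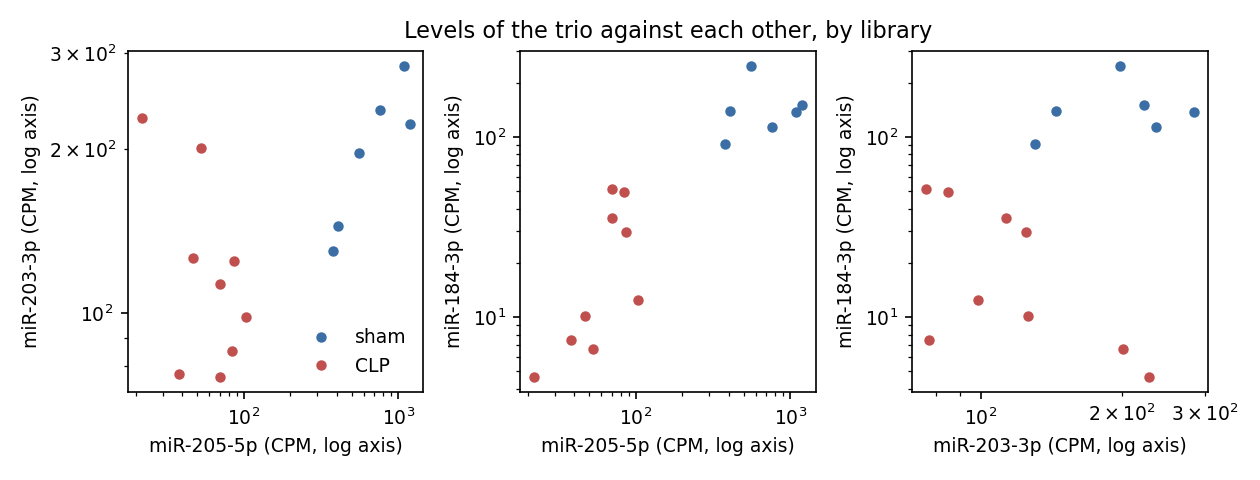
Level of each pair of the 3 miRNAs in TMM-scaled CPM on log axes, one point per library, blue for sham and red for CLP. In the left panel r was 0.90 in sham (n = 6) and -0.54 in CLP (n = 9). Neither passed adjustment, and a difference between the groups was not tested. In the right panel CLP 1 and CLP 9 are the red points at the lower right.

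The miRNAs whose log2 CPM most resembled each member across all 15 libraries, among 425 others, were listed by Pearson's r as a description. They were miR-191-5p (0.96), miR-214-3p (0.96) and miR-351-5p (0.95) for miR-205-5p, and miR-877-5p (0.96), miR-423-5p (0.96) and miR-505-5p (0.95) for miR-184-3p. All 6 fell by edgeR's test, at log2 changes of -1.75 to -5.22, so these coefficients largely repeat the difference between groups that the points share. miR-203-3p was most like the endothelial miR-126a-3p (0.76), its partner strand miR-126a-5p (0.74) and miR-872-5p (0.70). miR-184-3p came 27th in likeness to miR-205-5p (0.89), and miR-203-3p only 111th (0.54).

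Over the 9 CLP libraries alone the nearest were others. For miR-184-3p they were miR-320-3p (0.97), which bypasses the Drosha step of processing, miR-330-3p (0.92) and miR-214-3p (0.92). For miR-203-3p they were the 2 entries that hold miR-101a-3p (0.93, and 0.91 for the one shared with miR-101c) and again miR-126a-3p (0.88). For miR-205-5p they were the scarce miR-873a-3p (0.93) and miR-8120 (0.88), at means of 2.52 and 1.5 CPM, and miR-215-3p (0.86). With 9 points and 425 candidates, coefficients of this size are a ranking only.

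The other miRNAs listed moved in both directions. In 4 overlapping lists of miRNAs of keratinocytes, simple epithelium, eye and mesenchyme, 30 of 34 were tested, and by edgeR's test 6 rose, 10 fell and 14 did not pass. Their median log2 change was 0.16, beside 0.11 for all tested miRNAs. The 30 are set beside the 25.4% called higher and 21.8% called lower among all 426. The lists were chosen with earlier results of these data known, so their counts, calls and adjusted p values are a description.

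Of 12 other miRNAs active in keratinocytes, 9 were tested, with 2 higher, 1 lower and a median of 0.35. miR-21a-5p, raised in wounded and inflamed skin, rose from 2147 ± 261 CPM (SD, n = 6) to 5231 ± 1745 (n = 9), a log2 change of 1.28 ± 0.23 (edgeR adjusted p = 0.000186). miR-24-3p rose by 0.84 ± 0.19 (edgeR adjusted p = 0.00111), and miR-125b-5p, found in skin stem cells, changed by -1.19 ± 0.35 (edgeR adjusted p = 0.00812). The abundant miR-99a-5p (0.15 ± 0.22, edgeR adjusted p = 0.589) and miR-100-5p (0.51 ± 0.21, edgeR adjusted p = 0.0562) did not pass, though miR-100-5p did in 5 of 26 alternatives. miR-31-3p and miR-135b-5p, each with 5 counts in 1 library, and miR-34a-5p, with 61 counts in 9 libraries, were too scarce to be tested. miR-21a-5p, miR-24-3p, miR-99a-5p and miR-100-5p are also made in many other tissues. The tissue source of these and of miR-125b-5p in plasma was not tested.

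Of 12 miRNAs of simple and general epithelium 3 were higher and 4 lower, with a median of 0.37. miR-215-5p of gut and kidney epithelium changed by -2.13 ± 0.30 (edgeR adjusted p = 1.37e-05), miR-182-5p by -1.88 ± 0.25 (7.19e-06) and miR-183-5p by -1.45 ± 0.20 (1.18e-05), and for each of the 3 every CLP library lay below every sham library. miR-200a-3p, which shares the targets Zeb1 and Zeb2 with miR-205, rose by 1.04 ± 0.25 (edgeR adjusted p = 0.00206) from 813 ± 124 CPM (SD, n = 6) to 1674 ± 668 (n = 9). Among those that did not pass were the most abundant on the list, miR-192-5p (0.55 ± 0.29, edgeR adjusted p = 0.122) and miR-375-3p (0.67 ± 0.36, edgeR adjusted p = 0.133). The calls of 2 further members that rose, miR-141-3p and miR-194-5p, were lost in 2 and 20 of 26 alternatives.

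Of 7 miRNAs of the eye 6 were tested, and 4 fell and 0 rose, with a median of -1.21. miR-204-5p, of lens and pigmented epithelium, went from 37.0 ± 13.5 CPM (SD, n = 6) to 10.0 ± 1.97 (n = 9), a log2 change of -1.88 ± 0.23 (edgeR adjusted p = 3.11e-06). The remaining members that fell, miR-182-5p, miR-183-5p and miR-96-5p (-0.97 ± 0.23, edgeR adjusted p = 0.00236), form 1 cluster and are also on the list of simple epithelium. miR-124-3p (-0.61 ± 0.32, edgeR adjusted p = 0.121) and miR-211-5p (0.65 ± 0.43, edgeR adjusted p = 0.227) did not pass, and miR-9-5p was too scarce to be tested. The tissue source of the miRNAs on this list in plasma was not tested.

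Among 6 miRNAs of dermal and other mesenchyme, 1 rose and 4 fell, with a median of -1.20. miR-214-3p changed by -5.22 ± 0.57 (edgeR adjusted p = 1.92e-06) and miR-199a-5p by -1.97 ± 0.24 (edgeR adjusted p = 3.11e-06), while smooth muscle miR-145a-5p rose by 1.61 ± 0.40 (edgeR adjusted p = 0.00268). The entry shared by miR-199a-3p and miR-199b-3p fell, with a log2 change of -0.60 ± 0.21 (edgeR adjusted p = 0.0219), but without sham 5 it stood at -0.44 and did not pass (edgeR adjusted p = 0.0847). The abundant miR-143-3p (-0.07 ± 0.42, edgeR adjusted p = 0.893) did not pass.

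**Figure D5:**
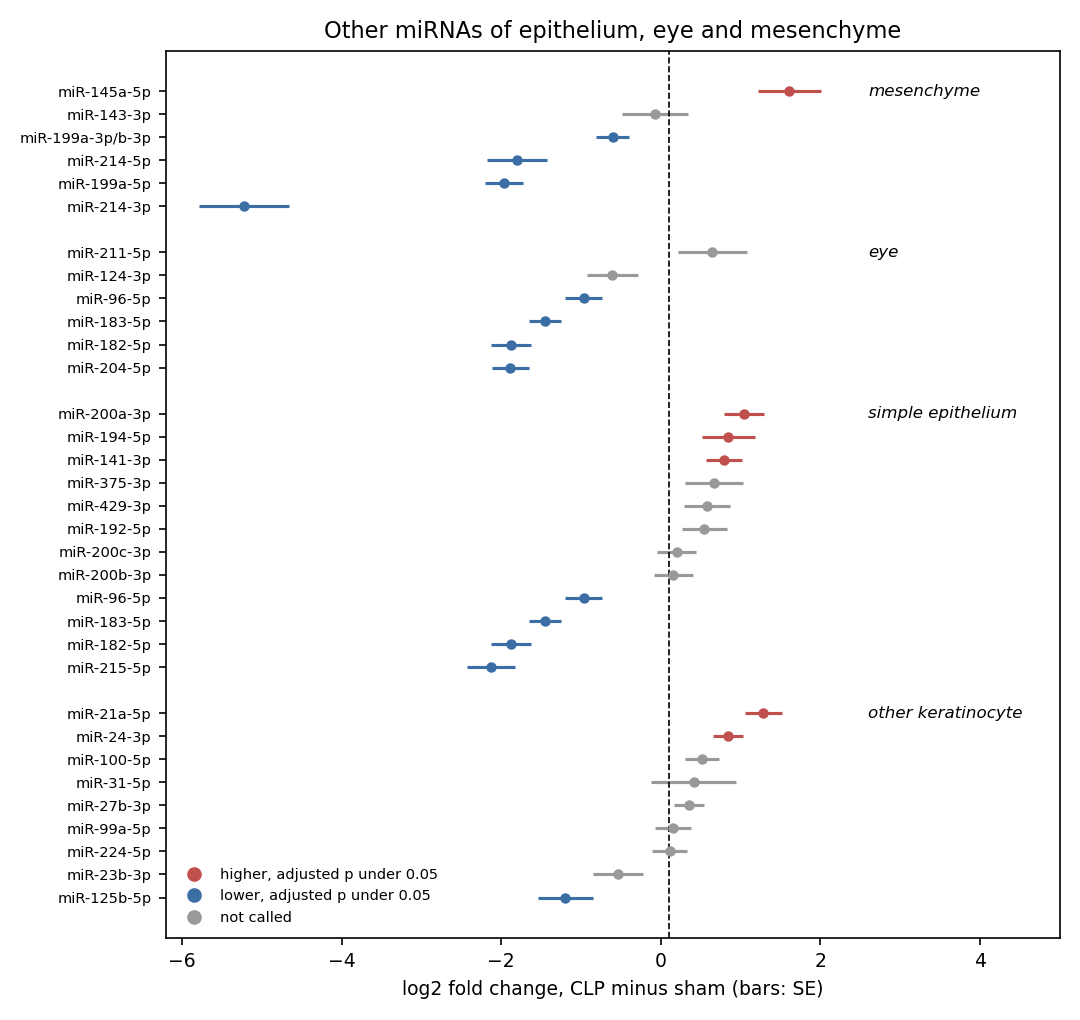
Log2 fold change of CLP minus sham with bars of 1 SE for the tested members of the 4 lists, blue where lower and red where higher by edgeR at an adjusted p under 0.05, grey where not called, with a dashed line at the median of all tested miRNAs. Members that rose and fell are 2 and 1 for keratinocytes and 3 and 4 for simple epithelium. They are 0 and 4 for the eye and 1 and 4 for mesenchyme. miR-182-5p, miR-183-5p and miR-96-5p are counted in both the eye and the simple epithelium list. Among all 426 tested miRNAs 25.4% were called higher and 21.8% lower. The lists were chosen with earlier results of these data known.

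Of 11 markers of other sources, 2 were higher, 3 lower and 6 not called by edgeR's test, beside 47.2% called among all tested miRNAs. The summed level of 3 red cell miRNAs was 157300 to 454400 CPM in sham and 81410 to 377400 in CLP, with miR-451a called lower and the other 2 not. The 3 muscle miRNAs summed to 409 to 6686 CPM in sham and 4975 to 40580 in CLP, with 2 higher. The 3 platelet and myeloid miRNAs summed to 34870 to 45830 CPM in sham and 5659 to 12090 in CLP. Nearly all of that sum was miR-191-5p, at a mean of 37340 CPM in sham and 5450 in CLP (-2.78 ± 0.28, edgeR adjusted p = 4.37e-07). The other 2 did not pass and went in opposite directions: miR-223-3p (0.36 ± 0.21, edgeR adjusted p = 0.157) and miR-126a-3p, named above as endothelial (-0.42 ± 0.22, edgeR adjusted p = 0.129). The liver miRNA miR-122-5p (1.39 ± 0.76, edgeR adjusted p = 0.139) was highest in CLP 1, at 79200 CPM, the library with the least miR-205-5p and miR-184-3p and the most miR-203-3p of the CLP group. Without CLP 1 the log2 changes were -3.45 for miR-205-5p, -2.60 for miR-184-3p and -0.89 for miR-203-3p. The lymphocyte miR-150-5p was called lower (-0.82 ± 0.33, edgeR adjusted p = 0.0480). The part of these sources in the levels of the trio was not tested.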

How the data were processed

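Small RNA was sequenced from platelet-free plasma of 6 sham and 9 CLP libraries, with adapters ligated to both ends, per the labels' protocols. The deposited table holds expected counts per mature miRNA, not scaled for depth, and its name gives exceRpt as the source. The submitters' processing notes name mm10 as the genome build. Which aligner, trimming and miRNA release were used is not given in the sources used here. Of all entries 4.56% were not whole, and counts were rounded before testing. All 15 columns were matched to libraries by their labels.

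edgeR 4.0.16 in R 4.3.3 fitted all 426 miRNAs kept by filterByExpr, with TMM scaling, a robust quasi-likelihood F test, no covariate and Benjamini-Hochberg adjustment at 0.05. Standard errors were the size of the log2 change over the square root of F. Log2 CPM used a prior count of 2. Correlations used exact permutation. Of simulated miRNAs in the comparison of CLP with sham (410 tested), 61.6% of 99 changed 2-fold and 95.5% of 89 changed 4-fold were called, and 0.68% of calls were false. The simulated counts were drawn from the fit's own estimates of spread, independently for each miRNA and library. These shares hold for that model and do not measure false calls in the real comparison. Libraries of a group were no copies of each other (lowest chi-square per degree of freedom 235).

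Members and lists were chosen with earlier results of these data known. miRNAs named were the members and their other strands, up to 4 called and 2 uncalled members of each list by mean CPM, and the 3 most like each member. Further list members, such as miR-141-3p and miR-194-5p, and scarce ones, were named after their values were seen. Alternatives were DESeq2 1.42.0, limma 3.58.1 voom with quality weights, other scalings and filters, the replicate number as a block, a red cell covariate (pseudocount 0.5), removal of a GC trend over the 373 tested miRNAs with a sequence (87.6%), and leaving out libraries.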

Additional observations from a re-analysis of the deposited data

Results flagged for a closer look

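The level of miR-205-3p in sham 5, at 7.21 CPM from 54 counts, stood apart from the other sham libraries, which held 3.82 to 4.49 CPM. Its gap to the next library was 0.749 of the group's log2 range, above Dixon's limit of 0.625 for 6 samples. Of 8 groups so checked for the 3 members and miR-205-3p this was the only one, and chance marks about 1 in 20. Without sham 5 the log2 change of miR-205-3p was -3.10 against -3.27. miR-205-5p in sham 5 was not apart, since sham 6 held more.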

How the results depend on the processing

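The log2 changes of the 3 members kept their sign in all 26 alternatives. They lay between -3.73 and -3.29 for miR-205-5p, -3.30 and -2.39 for miR-184-3p, and -1.06 and -0.55 for miR-203-3p. On leaving out 1 library the ranges were -3.72 to -3.36, -2.98 to -2.49 and -0.89 to -0.55. Of all miRNAs 201 were called, 108 higher and 93 lower. With no filter 307 of 1182 were called, 167 of them lower. With a mean of at least 10 CPM 69 were higher, out of 249 tested. Scaling by library size gave 90 higher and 126 lower.

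Replicate numbers did not pair the libraries: deviations of same-numbered libraries correlated at -0.15 to -0.03, and 0 of 6 sham libraries resembled their own number best. With the replicate block over 12 libraries 152 of 402 miRNAs were called, 71 of them higher, against 179 of 402 in the same libraries without it. Under the block the changes were -3.69 for miR-205-5p, -3.30 for miR-184-3p and -0.97 for miR-203-3p. Of the listed miRNAs tested, 25 to 34 by alternative, 4 to 7 were higher and 9 to 12 lower, and none of the 12 correlations passed under another scaling, a prior count of 0.5 or, for those in CLP, without CLP 5. Depth limits miR-205-3p and miR-203-5p, read 13 times or fewer in every CLP library.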
